A study of Homo sapiens with 14 samples.

Results

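Gene expression in Mel202 cells kept in ICG-001 was compared between 48 h and 24 h of treatment. Mel202 is an established line with mutant GNAQ that was grown from a primary uveal melanoma which had come back after irradiation. The comparison takes the 8 arrays of cells given 3 μM ICG-001 dissolved in DMSO, 4 at 48 h and 4 at 24 h, out of the 14 arrays of the series. The other 6 arrays hold the DMSO solvent controls, 3 at each time, and were used as the reference for how far genes moved without the compound. All cells were of this 1 line, carried its GNAQ mutations and were treated in 6-well plates, so the values describe that line alone. Of the 47323 probes on the Illumina bead array, 22158 passed a detection filter, and 11679 genes were tested with 1 probe each.

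ICG-001 is a small molecule that binds the coactivator CBP and blocks its use by β-catenin, the transcriptional arm of canonical Wnt signalling. CBP and its relative p300 also serve many other transcription factors, so that a compound of this kind can touch genes well outside the Wnt pathway. ATF4, the factor that switches on amino acid synthesis, amino acid uptake and tRNA charging when amino acids run short or other stresses halt translation, governs a gene set that recurs in the results below.

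Some titles differ from another only by a final a or b, and such a pair was averaged to 1 replicate, which left 3 ICG-001 replicates and 2 DMSO replicates at each time. Replicate 1 at 24 h and replicate 3 at 48 h are such pairs among the ICG-001 samples. What the letters mean is not given in the labels, nor whether each replicate was a culture of its own. The p-values therefore reflect the scatter among these samples alone, and that scatter may be technical. Between 17894 and 20124 probes were detected on each ICG-001 array. Over all probes that passed the filter, the 2 arrays with the letter b stood apart from the other 6 on the first principal component (35.7% of the variance). They correlated more closely with each other across the times (r = 0.992) than with their own a arrays (r = 0.983 and 0.984). Medians within the b arrays, 1 at each time, are given beside the main gene groups.

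The melanocytic label held on the arrays. Of 25 melanocyte genes with a probe, 24 were detected on all 8 ICG-001 arrays, and the exception was TRPM1. The mean log2 level of the list was 10.09 to 10.17 at 24 h and 10.19 to 10.25 at 48 h. DCN, KDR and CD14, defining genes of fibroblasts, endothelium and monocytes, were not detected on any ICG-001 array. On at least 1 array 3 of 4 fibroblast markers with a probe, 4 of 5 immune markers, 7 of 7 retinal pigment epithelium markers and 6 of 6 Schwann or neural crest stem markers were detected, and the mean level of each of these lists overlapped between the times. All 3 epithelial markers with a probe, CDH1 among them, were detected on at least 1 array. Their mean ran from 5.82 to 6.31 at 24 h and from 6.36 to 6.67 at 48 h. Of 3 endothelial markers with a probe, 2 were detected on all 8 ICG-001 arrays. The 2 endothelial markers tested ran from 7.00 to 7.46 at 24 h and from 6.90 to 6.96 at 48 h. The part of these markers in the results was not tested.

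Few genes moved between 24 h and 48 h of ICG-001. 10 genes rose and 7 fell, 17 of 11679 (0.146%), at an adjusted p below 0.05 in limma, and 4 of them changed at least 2-fold. The genes that rose were CDH1, GAGE12B, OLFM1, RASD1, SCARA3, PPIL6, SNX10, TUBA3D, SLC44A3 and PGM1, and those that fell were TRIM47, MGP, CTHRC1, MAP2, FST, CBLB and PCDH7. At an unadjusted p below 0.05, 1346 genes (11.5%) differed. The median log2 difference over all genes was -0.01 and its median size 0.13, while the 95% interval of a gene reached a median of 0.30 to either side, and the smallest change that was called was 0.70. The count of 17 was not stable. It became 0 when any one of the 3 replicates at 24 h, or replicate 1 or 2 at 48 h, was left out, and also when the ICG-001 arrays were fitted without the DMSO arrays. It was 18 without replicate 3 at 48 h, of which 10 were among the 17, and 167 when every array was kept with the letter b as a term, which contained all 17. Each of the 17 kept its sign in every setting. The call was made in 10 of 26 settings for TUBA3D, in 10 of 25 for FST and in up to 19 of 26 for the others, the most for OLFM1. In the authors' normalised table the changes of OLFM1, TUBA3D, PGM1, MGP, CBLB and PCDH7 were within 1.5 times of those given here and the others were smaller by more, such as 0.60 for CDH1, 0.31 for RASD1 and -0.21 for TRIM47.

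Most of these genes differed in the same direction in DMSO. Of the 17 genes, 16 had a DMSO difference of the same sign, and for 7 the 95% interval of the DMSO difference covered the ICG-001 difference. In DMSO, 4 genes passed the threshold between the times (0.0342% of all genes): SNX10 rose, and MGP, CRYAB and SCRG1 fell. A test of the difference between the 2 time changes called no gene in limma (0% of 11679), although 660 genes (5.65%) had an unadjusted p below 0.05 there. Among the other settings tried, 1 gene was called in that test, C6orf62 when DMSO 24 h replicate 1 was left out. Of the 17, 8 had an unadjusted p below 0.05 for the difference of time changes. These were SCARA3, PPIL6, TUBA3D, TRIM47, CTHRC1, MAP2, CBLB and PCDH7. The 17 were chosen by their ICG-001 time change, which is 1 side of that difference. A raised count among them is therefore partly built in, and no conclusion is drawn from it.

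**Figure D1:**
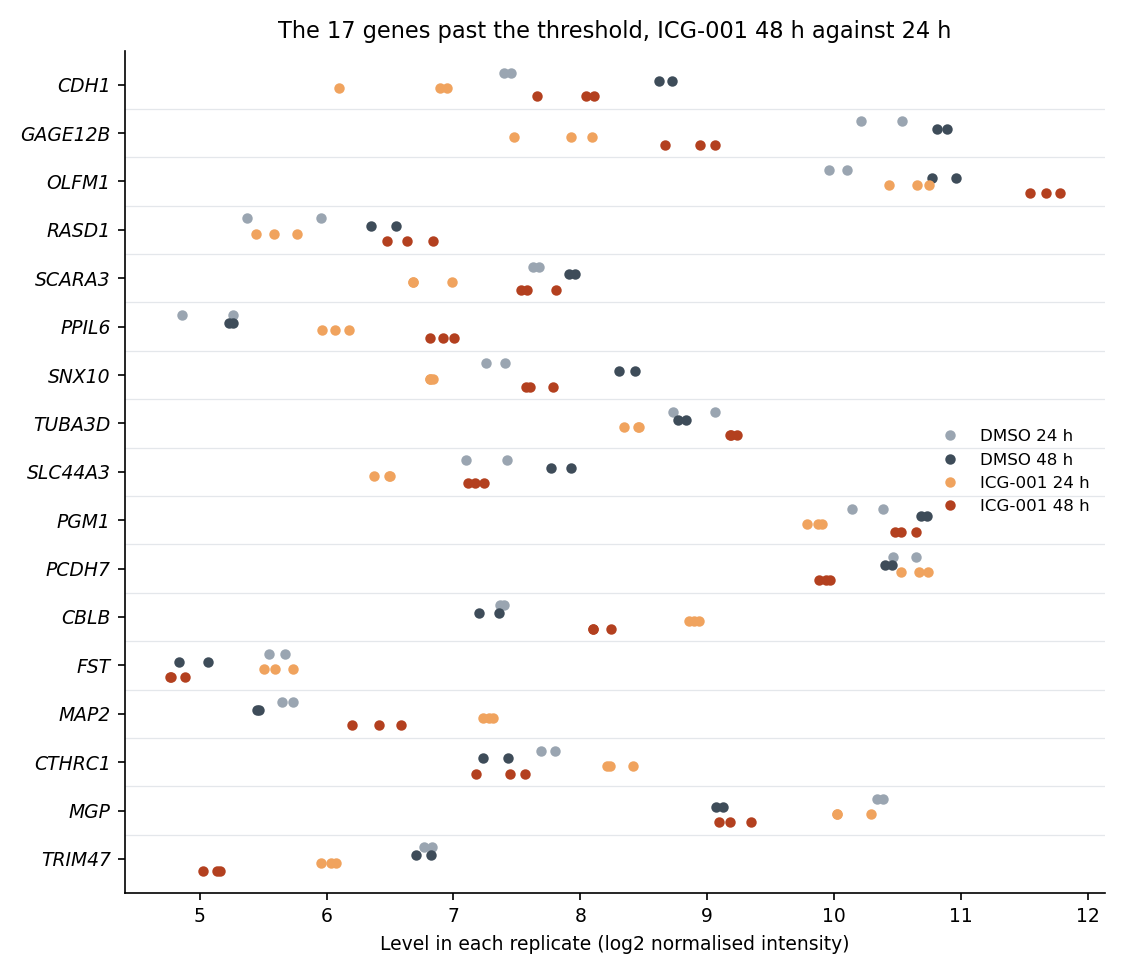
Level of each of the 17 genes past the threshold (rows) in every replicate, as log2 normalised intensity on the horizontal axis, with 2 DMSO and 3 ICG-001 points per time. In all 17 the ICG-001 points at 48 h lie clear of those at 24 h. The DMSO mean shifts the same way in all but TUBA3D, most in MGP, CDH1, SNX10, OLFM1 and RASD1.

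CDH1 encodes E-cadherin, the junction protein whose cytoplasmic tail binds β-catenin. Its log2 levels in ICG-001 were 6.10, 6.89 and 6.95 at 24 h and 8.10, 8.04 and 7.66 at 48 h, with a rise of 1.29 ± 0.21 (SE, n = 3 against 3; limma adjusted p = 0.0434). The DMSO replicates went from 7.40 and 7.46 to 8.62 and 8.72, so both treatments shifted by nearly the same amount and the ICG-001 cells stayed below DMSO, by a log2 difference of -0.78 at 24 h and -0.74 at 48 h. SNX10, a sorting nexin of endosomes, behaved alike in its values. It rose by 0.83 in ICG-001 and by 1.04 in DMSO and stood lower than DMSO at both times, by -0.51 and -0.71. SLC44A3, a member of the choline transporter-like family, rose by 0.72 beside a DMSO difference of 0.59. OLFM1, a secreted olfactomedin protein, rose from 10.43, 10.65 and 10.75 to 11.78, 11.67 and 11.54, and RASD1, a Ras-related GTPase induced by glucocorticoids, rose by 1.05. Their DMSO differences were 0.83 and 0.78. RASD1 was above background on 3 of the 4 arrays at 24 h.

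TUBA3D, an α-tubulin, rose from 8.34, 8.46 and 8.45 at 24 h to 9.23, 9.18 and 9.18 at 48 h in ICG-001, a log2 change of 0.78 ± 0.11 (SE, n = 3 against 3; adjusted p = 0.0282), whereas DMSO differed by -0.09. The gene passed the threshold against DMSO at both times with opposite signs, -0.48 at 24 h (adjusted p = 0.0192) and 0.40 at 48 h (adjusted p = 0.0380). Near-identical α-tubulin copies may share its probe. The time change was called in 10 of 26 settings, and the call was lost with every array as a replicate, with the title number as a block, without the b arrays and with scaling to the 75th percentile. PPIL6, of the cyclophilin family of prolyl isomerases, rose from 6.07, 6.18 and 5.97 to 6.81, 7.00 and 6.92 and so moved further from DMSO, from 2.01-fold above at 24 h to 3.17-fold above at 48 h. It was above background on 1 of the 3 DMSO arrays at 24 h, so that this reference lies near the floor, and its change between the times was 0.29 in the authors' table. SCARA3, a scavenger receptor family member, rose by 0.86 and PGM1, the phosphoglucomutase that links glycogen to glycolysis, by 0.70. Both stood lower than DMSO at 24 h, by -0.87 and -0.41, and their differences at 48 h, -0.29 and -0.16, did not pass the threshold.

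Among the genes that fell, TRIM47 moved further from DMSO, while MAP2 and CBLB moved closer to it. TRIM47, a RING-type E3 ubiquitin ligase, stood at 5.96, 6.07 and 6.04 at 24 h and 5.02, 5.16 and 5.14 at 48 h, and so fell by 0.91 ± 0.10 (SE, adjusted p = 0.0184), with a DMSO difference of -0.04. It went from 1.72-fold to 3.15-fold below DMSO, and was above background on 2 of the 4 arrays at 48 h, so the lower level is close to the floor of the array. MAP2, a microtubule-associated protein typical of neurons, had levels of 7.23, 7.28 and 7.31 at 24 h and 6.59, 6.41 and 6.20 at 48 h. CBLB, an E3 ubiquitin ligase that restrains receptor signalling, had levels of 8.90, 8.86 and 8.93 followed by 8.10, 8.10 and 8.24. Both were about 3-fold above DMSO at 24 h (2.99 and 2.85) and remained above it at 48 h (1.92 and 1.82), with the ICG-001 replicates clear of DMSO at each time.

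CTHRC1, a secreted protein of matrix remodelling, fell by 0.89 and PCDH7, a protocadherin, by 0.72. CTHRC1 had been above DMSO by 0.54 at 24 h and was at 0.06 at 48 h, and PCDH7 was at 0.09 at 24 h and at -0.50 at 48 h, where it passed the threshold against DMSO (adjusted p = 0.0118). MGP, the matrix Gla protein that inhibits calcification, and FST, the activin-binding follistatin, fell in ICG-001 by 0.91 and 0.80 beside DMSO differences of -1.27 and -0.66. Neither passed the threshold against DMSO at 24 h or at 48 h. FST was not above background on any array at 48 h, which leaves a bound of at least 1.38-fold lower. A further MGP probe fell by 1.32 in a fit of single probes, where 3 of 22158 probes passed, the others being those of OLFM1 and TRIM47, and where none of 6493 probes without a gene symbol passed. COL11A1, ITGA1 and HSPB3 complete the 10 smallest p-values on the lower side without passing, with log2 differences of -0.62, -0.58 and -1.08 and an adjusted p of 0.0618 each. ITGA1 was not above background on any array at 48 h.

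**Figure D2:**
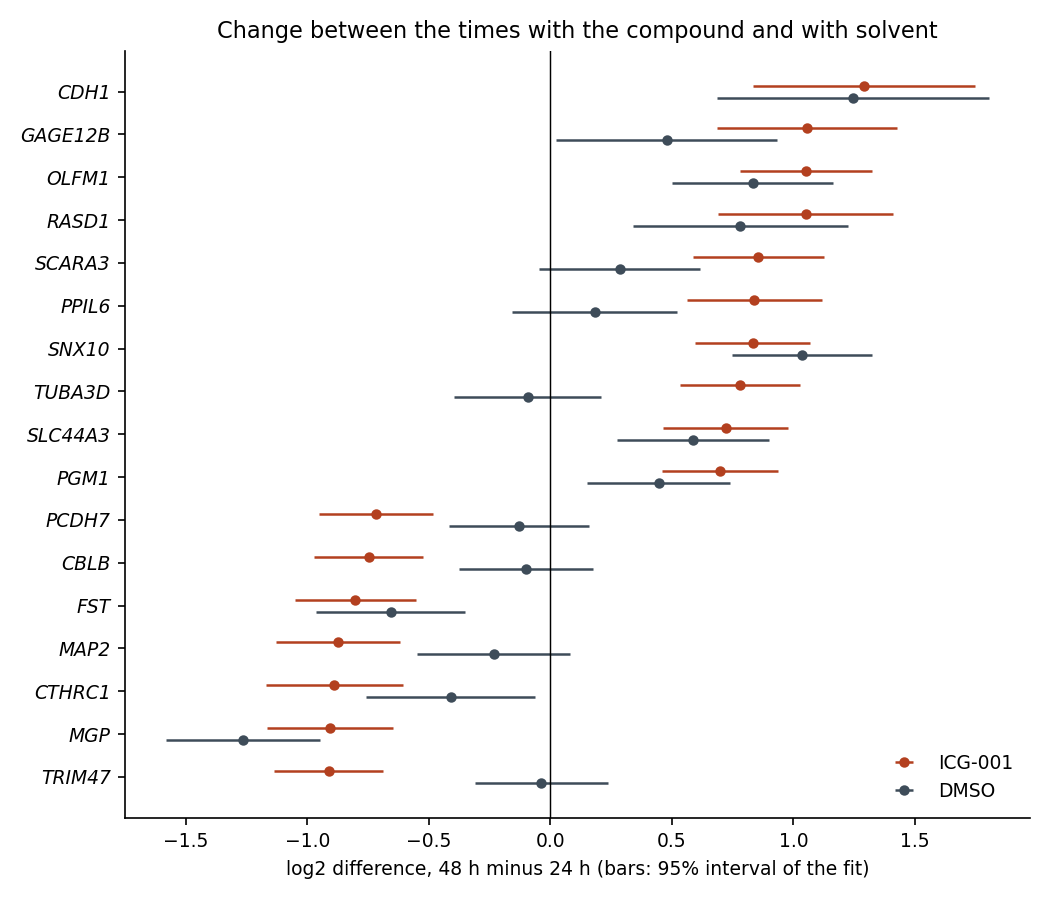
Log2 difference between 48 h and 24 h, with 95% intervals of the fit, in ICG-001 (n = 3 against 3) and in DMSO (n = 2 against 2) for the 17 genes. The DMSO point sits on the same side of 0 as the ICG-001 point for every gene except TUBA3D.

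Most genes that differed from DMSO at 24 h were held at 48 h within the limit defined below. At 24 h, 2833 genes (24.3% of those tested) differed from DMSO, 1602 higher and 1231 lower. Of these, 2296 (81.0%) were held, meaning that the 95% interval of their 48 h minus 24 h difference lay within 1.5-fold in either direction. Another 3 moved on in the same direction (OLFM1, PPIL6 and TRIM47), 10 moved back, and 524 had intervals that placed them nowhere. Moving on and moving back are judged by the level in ICG-001 alone. CDH1, SNX10 and SLC44A3 therefore count as moving back although their distance from DMSO changed little. OLFM1 counts as moving on although it rose by 0.83 in DMSO too. It stood 0.58 above DMSO at 24 h and 0.80 at 48 h. With the limit narrowed to a rise of 25%, or the fall of the same ratio, 532 were held. The median size of the log2 difference from DMSO at 24 h was 0.63 among the 2833 genes. A gene may therefore be held at 1.5-fold and still have lost or gained much of that difference. Over all genes tested, the difference between the times, without its interval, was within 1.5-fold for 98.8%. These counts describe the genes, since the difference from DMSO at 24 h and the change between the times share the ICG-001 24 h arrays. Among the 275 genes at least 2-fold from DMSO at 24 h, 178 were held, 93 could not be placed, 3 moved back (GAGE12B, MAP2 and CBLB) and 1 moved on (PPIL6).

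The comparisons with DMSO at the 2 times share no array. Both take the spread of each gene from the same fit, however, so the calls at the 2 times are not independent. Of the 2833 genes called at 24 h, 1912 (67.5%) were called at 48 h in the same direction, where 25.8% of all genes were called, and 2774 (97.9%) had the same sign. Only TUBA3D and TUBB2A were called with opposite signs. Of the 275 genes with at least a 2-fold difference at 24 h, all had the same sign at 48 h and 262 passed there. The median ratio of the log2 difference at 48 h to that at 24 h was 0.88 for genes called at 24 h, and the ratio taken the other way was 0.82 for genes called at 48 h, so that either choice gave the larger value at the time that made it. The plot of the 2 differences places most genes along the diagonal.

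**Figure D3:**
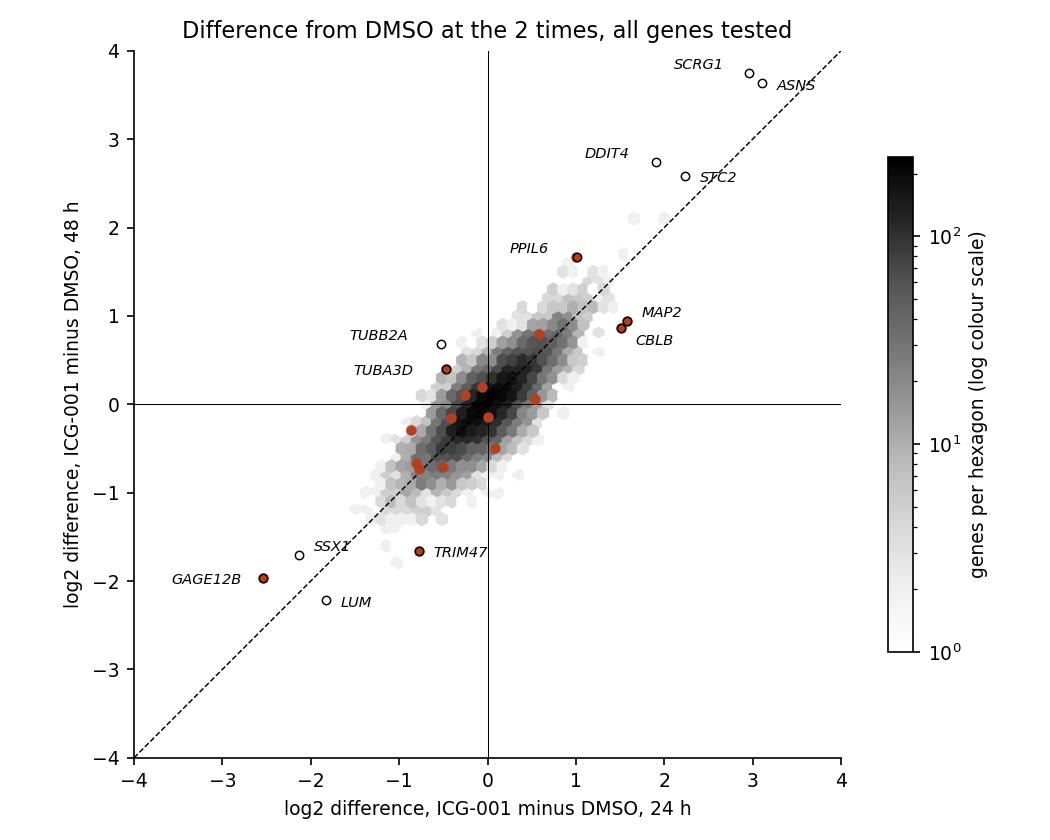
Log2 difference between ICG-001 and DMSO at 24 h (horizontal) and at 48 h (vertical) for the 11679 genes, as counts per hexagon on a log colour scale, with the 17 genes called between the times in red and named genes ringed. The dashed line marks equal differences. ASNS and SCRG1 are at the upper right, GAGE12B, SSX1 and LUM at the lower left, and TUBA3D and TUBB2A lie in the quadrant where the sign changes.

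The 10 held genes that were farthest from DMSO at 24 h were ASNS, SCRG1, USF1, SSX1, NACC1, TNFRSF19, PCK2, LUM, RABL2A and KCNG1. ASNS, which makes asparagine, stood at 12.75, 12.57 and 12.64 at 24 h and at 12.86, 13.01 and 12.80 at 48 h, against DMSO levels of 9.51 and 9.57 and then 9.22 and 9.30. Its ICG-001 difference between the times was 0.24 (95% interval 0.00 to 0.47). SCRG1, a small secreted protein, stayed between 10.09 and 10.44 in ICG-001 while it fell by 1.00 in DMSO, so that its distance from DMSO was 7.77-fold at 24 h and 13.5-fold at 48 h. CRYAB, a small heat shock protein and lens crystallin, did the same in its values, with a difference of -0.25 in ICG-001 beside a fall of 1.18 in DMSO. LUM, the proteoglycan lumican and 1 of the fibroblast markers, stayed low in ICG-001, at 6.98 to 7.48 at 24 h and 7.33 to 7.53 at 48 h, while the DMSO replicates lay between 9.12 and 9.70. NACC1, a BTB-domain transcriptional regulator, stayed about 4-fold below DMSO, with log2 differences of -1.99 and -1.90. PCK2, the mitochondrial phosphoenolpyruvate carboxykinase, and TNFRSF19, a receptor of the TNF receptor family, stayed above DMSO, by 1.95 and 1.99 at 24 h and 2.01 and 2.16 at 48 h.

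Gene lists of the amino acid and ATF4 response had at least as many members above DMSO at 48 h as at 24 h, and no member of the 4 lists passed between the times. Of all 11679 genes, 1602 were above DMSO at 24 h and 1640 at 48 h. All 12 cytosolic aminoacyl-tRNA synthetase genes above DMSO at 24 h were held, and 12 were above it at 48 h. Every one of the 18 tested in that list had an interval within 1.5-fold, and their median difference was -0.01, with 0.03 within the b arrays. Without the interval, which is a looser measure, the difference was within 1.5-fold for 98.8% of all genes tested. The share of all genes with such intervals is not given here, so whether this list stands out was not tested. For AARS1 and SARS1, which charge the alanine and serine tRNAs, the differences were -0.05 and -0.08. Of the amino acid synthesis enzymes, 11 of 16 were above DMSO at 24 h and 14 at 48 h, 10 of the 11 were held, and the list median was 0.20 in ICG-001 and -0.01 in DMSO. PHGDH and PSAT1, the first steps of serine synthesis, differed between the times by 0.22 and 0.27. Within the b arrays the list median was 0.10. The mean level of the list ran from 9.96 to 10.05 at 24 h and from 10.13 to 10.17 at 48 h in ICG-001, without overlap.

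The promoters of ASNS and CHAC1, which hold the element, are shown because amino acid genes carry a known response element, with the form TGATGNAAN, to which ATF4 binds. Both are the 250 bases before a RefSeq start site on GRCh38.p14, 5′ to 3′ on the strand of the gene, and the capitals mark the match. For ASNS, at 1 of its 2 listed start sites, they are chr7:97872409-97872658 on the minus strand, with the match starting 68 bases before the start site. For CHAC1, which breaks down glutathione, they are chr15:40953221-40953470 on the plus strand, with the match on the opposite strand and starting 210 bases before the start site.
ASNS: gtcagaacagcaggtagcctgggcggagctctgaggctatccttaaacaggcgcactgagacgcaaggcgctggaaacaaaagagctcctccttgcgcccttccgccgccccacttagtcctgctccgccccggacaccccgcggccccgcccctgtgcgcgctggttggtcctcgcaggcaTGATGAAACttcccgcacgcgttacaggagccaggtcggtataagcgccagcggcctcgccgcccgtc
CHAC1: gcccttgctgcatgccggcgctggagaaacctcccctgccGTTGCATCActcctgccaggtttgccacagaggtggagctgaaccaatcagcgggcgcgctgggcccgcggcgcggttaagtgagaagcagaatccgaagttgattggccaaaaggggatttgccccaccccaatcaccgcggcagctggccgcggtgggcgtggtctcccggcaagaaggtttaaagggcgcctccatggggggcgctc
On either strand the element was found in 3 of 11 amino acid synthesis genes, 4 of 21 ATF4 regulators and effectors, 3 of 15 cytosolic tRNA synthetase genes and 1 of 14 amino acid transporters with a RefSeq promoter, against 218 of 9371 genes tested (2.33%) and 1057 of 27303 genes in all (3.87%). A gene counted when any of its listed start sites had the match. CHAC1 levels were 7.94, 7.40 and 7.45 at 24 h and 7.60, 7.80 and 7.83 at 48 h, which overlap.

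Over all 11679 genes, 1602 stood above DMSO at 24 h and 1640 at 48 h. Of the ATF4 regulators and effectors, 26 were tested, and 18 stood above DMSO at 24 h and 18 at 48 h. Of these 18, 11 were held and 7 could not be placed. The list median between the times was 0.19 in ICG-001 and 0.01 in DMSO. The mean level of the list was 9.15, 8.97 and 9.07 at 24 h and 9.26, 9.25 and 9.24 at 48 h in ICG-001, so the replicates did not overlap, with 8.20 and 8.31 and then 8.23 and 8.27 in DMSO. ATF4 itself was held, at a difference of 0.04. The members with the smallest p in the list, chosen after their values were seen, were DDIT4, an inhibitor of mTORC1, at 0.56 (95% interval 0.23 to 0.90, adjusted p = 0.202), CEBPG, a dimer partner of ATF4, at 0.47, and DDIT3, which encodes the stress factor CHOP, at 0.59. DDIT4 stood 1.90 above DMSO at 24 h and 2.74 at 48 h on the log2 scale. DDIT3 stood at -0.14 and then at 0.66, where it passed the threshold (adjusted p = 0.0273). Within the b arrays the list median was 0.07. Among 16 amino acid transporters, 7 were above DMSO at each time, and 3 of the 7 were held and 4 could not be placed. The mean level of the transporters was 8.13, 8.11 and 8.12 at 24 h and 8.22, 8.26 and 8.26 at 48 h in ICG-001, without overlap, and the list median was 0.16, with 0.10 within the b arrays. The smallest p between the times was that of SLC1A4 at a difference of 0.83, a neutral amino acid exchanger (adjusted p = 0.0807), beside 0.49 in DMSO.

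Mitotic genes stood closer to DMSO at 48 h than at 24 h. All 51 genes of a list of kinetochore, spindle and mitotic kinase genes had a positive difference between the times in ICG-001, against 48.4% of all genes tested, with a median of 0.36, against -0.01 over all genes. In 42 of the 51 every replicate at 48 h lay above every replicate at 24 h, where 18.3% of all genes had replicates that did not overlap in either direction and 8.85% had those of 48 h above. In DMSO 29 of the 51 were positive and the median was 0.02. None passed the threshold of limma, though 37 had an unadjusted p below 0.05. The median was 0.26 to 0.38 under the other 24 settings, with up to 10 of the 51 called. Within the b arrays 50 were positive, with a median of 0.49. The difference of the time changes was positive in 50 of the 51, and 15 had an unadjusted p below 0.05 in its test, where 5.65% of all genes had.

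The mean log2 level of the mitotic list was 9.02, 9.15 and 9.13 in ICG-001 at 24 h and 9.46, 9.46 and 9.45 at 48 h. In DMSO it was 9.62 and 9.50 at 24 h and 9.60 and 9.60 at 48 h. Of all 11679 genes, 1231 were below DMSO at the threshold and 1602 above at 24 h, and 1370 below and 1640 above at 48 h. In the mitotic list 29 of the 51 genes were below at 24 h and none above, whereas at 48 h 10 were below and 4 above. More dividing cells and more of these mRNAs per dividing cell cannot be told apart in bulk RNA. CENPA, the histone variant of centromeres, had levels of 8.82, 8.79 and 8.93 at 24 h and 9.45, 9.19 and 9.31 at 48 h, against 9.76 to 9.98 in DMSO. AURKB, the kinase of the chromosomal passenger complex, went from a log2 difference from DMSO of -0.94 (adjusted p = 0.000954) to -0.20 (adjusted p = 0.302). Between the times AURKB differed by 0.39 in ICG-001 and by -0.35 in DMSO, so both groups contributed to that shift. CCNB1, the cyclin that starts mitosis, had 8.90, 8.89 and 9.10 followed by 9.39, 9.50 and 9.51, with DMSO at 9.33 to 9.78. KIF4A, a chromokinesin, remained below DMSO at both times, by -0.89 and -0.57. The 4 smallest p-values of the list between the times were those of CENPF, KIF4A, TOP2A and ECT2, with differences of 0.67 (adjusted p = 0.0643), 0.54, 0.60 and 0.48. CENPF, a kinetochore protein, was above DMSO at 48 h by 0.83 (adjusted p = 0.00164). The genes named here were chosen after their values were seen.

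Many mitotic promoters carry a cell cycle element of the letters TTTGAA, known as the CHR, which the DREAM complex binds in resting cells. CENPA and KIF4A are shown as members whose replicates did not overlap between the times and whose promoters hold these letters, with the 250 bases before the RefSeq start site on GRCh38.p14, on the plus strand and with the element in capitals. They lie at chr2:26785806-26786055 and chrX:70289854-70290103, with the element starting 18 and 34 bases before the start site.
CENPA: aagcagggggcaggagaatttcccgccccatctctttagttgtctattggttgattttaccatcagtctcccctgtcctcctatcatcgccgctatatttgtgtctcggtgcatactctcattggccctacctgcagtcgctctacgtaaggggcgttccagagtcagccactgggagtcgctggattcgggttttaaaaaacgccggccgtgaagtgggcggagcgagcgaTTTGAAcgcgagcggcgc
KIF4A: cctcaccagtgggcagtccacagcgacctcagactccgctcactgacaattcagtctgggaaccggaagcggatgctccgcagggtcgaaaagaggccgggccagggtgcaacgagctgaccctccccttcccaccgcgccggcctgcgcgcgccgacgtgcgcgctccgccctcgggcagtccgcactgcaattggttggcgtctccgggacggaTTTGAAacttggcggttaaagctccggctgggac
The letters occurred on either strand in 23 of 43 mitotic genes with a RefSeq promoter (53.5%), against 12.4% of the 9371 genes tested and 16.1% of all 27303 genes. In DNA replication and S phase genes they occurred in 1 of 45. The S phase genes had smaller differences between the times. Their median was 0.12 in ICG-001, 0.12 within the b arrays and 0.04 in DMSO, none of 52 passed, and all 10 that differed from DMSO at 24 h were held. Those 10 include TK1, thymidine kinase, and GMNN, geminin, both of which stood below DMSO at 24 h, by -0.76 and -0.49. Between the times 42 of the 52 S phase genes were positive in ICG-001 and 32 in DMSO, where 48.4% and 49.8% of all genes were. Against DMSO, 8 of the 52 were below and 2 above at 24 h, and 3 below and 6 above at 48 h. Over all 11679 genes, 1231 were below and 1602 above at 24 h, and 1370 below and 1640 above at 48 h.

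**Figure D4:**
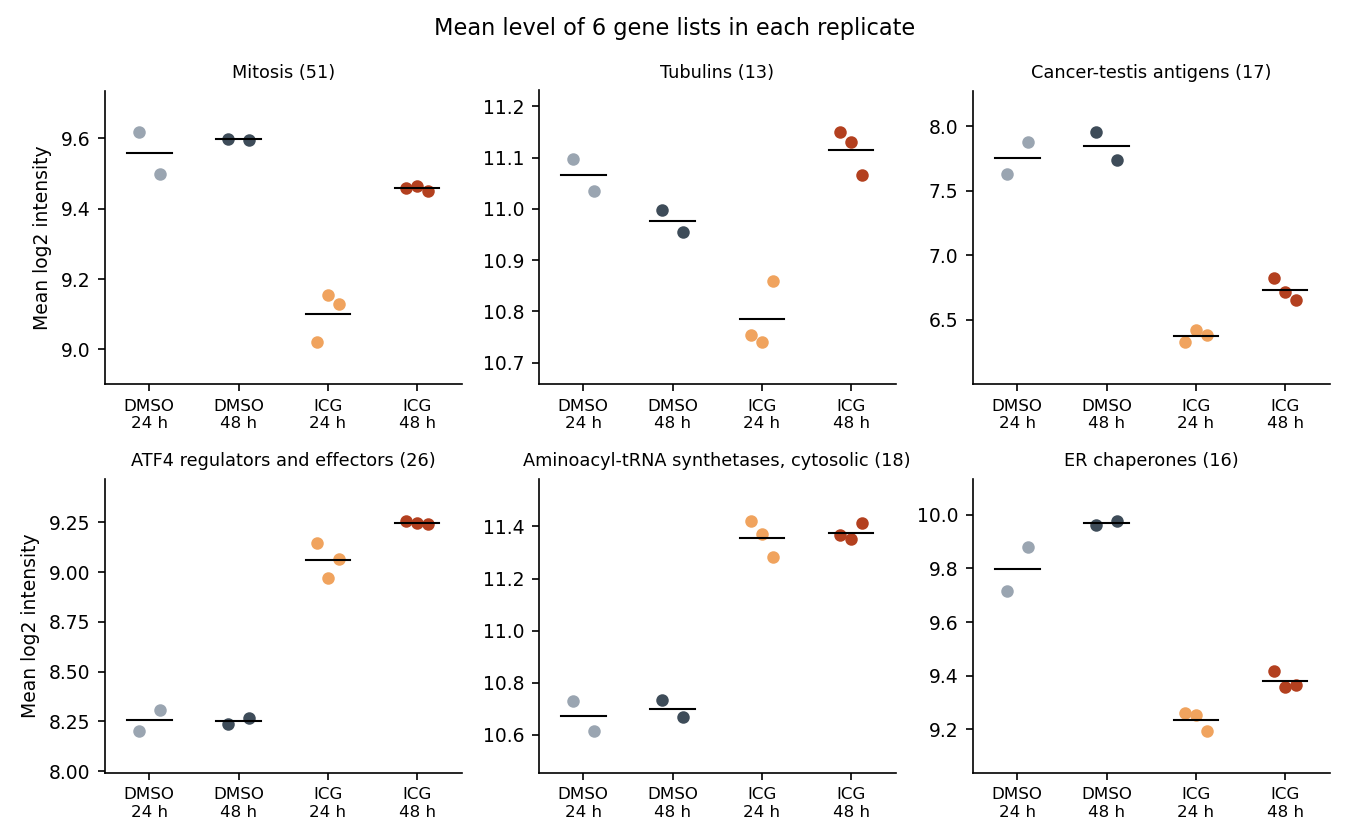
Mean log2 intensity of 6 gene lists (number of genes in brackets) in each replicate, with the group mean as a bar. The vertical axes differ between panels and do not start at 0. In ICG-001 the mitotic list lies at 9.02 to 9.15 at 24 h and at 9.45 to 9.46 at 48 h, below DMSO at both times, while the tRNA synthetase list overlaps between the times.

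Tubulins and cancer-testis antigens had the next largest list medians. All 13 tubulin genes tested were positive in ICG-001, with a median of 0.31. In 9 the replicates at 48 h lay above those at 24 h, as in 8.85% of all genes. In DMSO the median was -0.07 and 3 of 13 were positive. None passed apart from TUBA3D, which is not in the list. TUBB2A, a β-tubulin, had levels of 9.84, 9.78 and 9.70 at 24 h and 10.26, 10.45 and 10.53 at 48 h, while DMSO had 10.25 and 10.36 and then 10.03 and 9.43, so that its difference from DMSO changed from -0.53 to 0.68. For TUBA1C and TUBB4B, an α- and a β-tubulin, the differences from DMSO were -0.91 and -1.06 at 24 h and -0.43 and -0.52 at 48 h. Within the b arrays the list median was 0.26 and 11 of 13 were positive.

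GAGE12B, one of the cancer-testis antigens that melanomas switch on, rose from 7.48, 8.09 and 7.93 to 9.06, 8.94 and 8.67 (log2 change 1.06 ± 0.17, SE; adjusted p = 0.0434). DMSO had 10.21 and 10.53 at 24 h and 10.89 and 10.81 at 48 h, so the gene remained below DMSO, 5.81-fold at 24 h and 3.90-fold at 48 h. GAGE12C and GAGE12H differed by 1.12 and 0.90 without passing, with adjusted p of 0.0503 and 0.0501, and GAGE12F by 0.55 (adjusted p = 0.249). The GAGE genes are near-identical copies whose probes may take up each other's RNA, so they may not be separate observations. The median of the 17 genes of the list was 0.31 in ICG-001 and 0.09 in DMSO, and in the authors' normalised table it was 0.08. Within the b arrays the median was 0.21 and 12 of 17 were positive. At each time 14 were below DMSO, against 1231 of all 11679 genes at 24 h and 1370 at 48 h. SSX1 was held, with levels of 6.94, 6.89 and 6.74 at 24 h and 6.78, 6.90 and 7.07 at 48 h.

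Several lists had positive medians in both treatments. Of 26 cytosolic heat shock genes, 21 were positive in ICG-001 and 19 in DMSO, with a median of 0.18 in each, and none passed. The difference of time changes was positive in 17 of the 26, with a median of 0.11, and the median within the b arrays was 0.06. HSPA1B, an inducible HSP70, differed by 0.67 in ICG-001 and 0.38 in DMSO. Of 16 chaperones of the endoplasmic reticulum, 9 were below DMSO at 24 h and 11 at 48 h. Over all 11679 genes, 1231 and 1370 were. The chaperone medians between the times were 0.15 in ICG-001, 0.12 within the b arrays and 0.13 in DMSO, and 7 of the 9 were held. CALR, the calcium-binding chaperone calreticulin, stayed low, at -1.32 and -1.12 against DMSO. Of the 24 melanocyte genes tested, CDH1 alone passed, the median was 0.02 in ICG-001 and 0.14 in DMSO, and 12 of the 13 that differed from DMSO at 24 h were held. TYR, the tyrosinase of melanin synthesis, differed by 0.53 in ICG-001 and 0.51 in DMSO, and SLC45A2, a melanosome transporter, remained below DMSO by -0.85 and -0.82. SLC24A5, an ion exchanger of melanosomes, was held below DMSO as well, by -0.41 and -0.54. CDH1 was also the single gene to pass among 21 uveal melanoma drivers and prognostic genes, where ECM1, LMCD1 and RAB31 differed by -0.41, -0.23 and -0.20, and among the 3 epithelial markers, where ESRP1, a splicing regulator of epithelia, differed by 0.06 and CLDN4, a tight junction claudin, by -0.13.

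**Figure D5:**
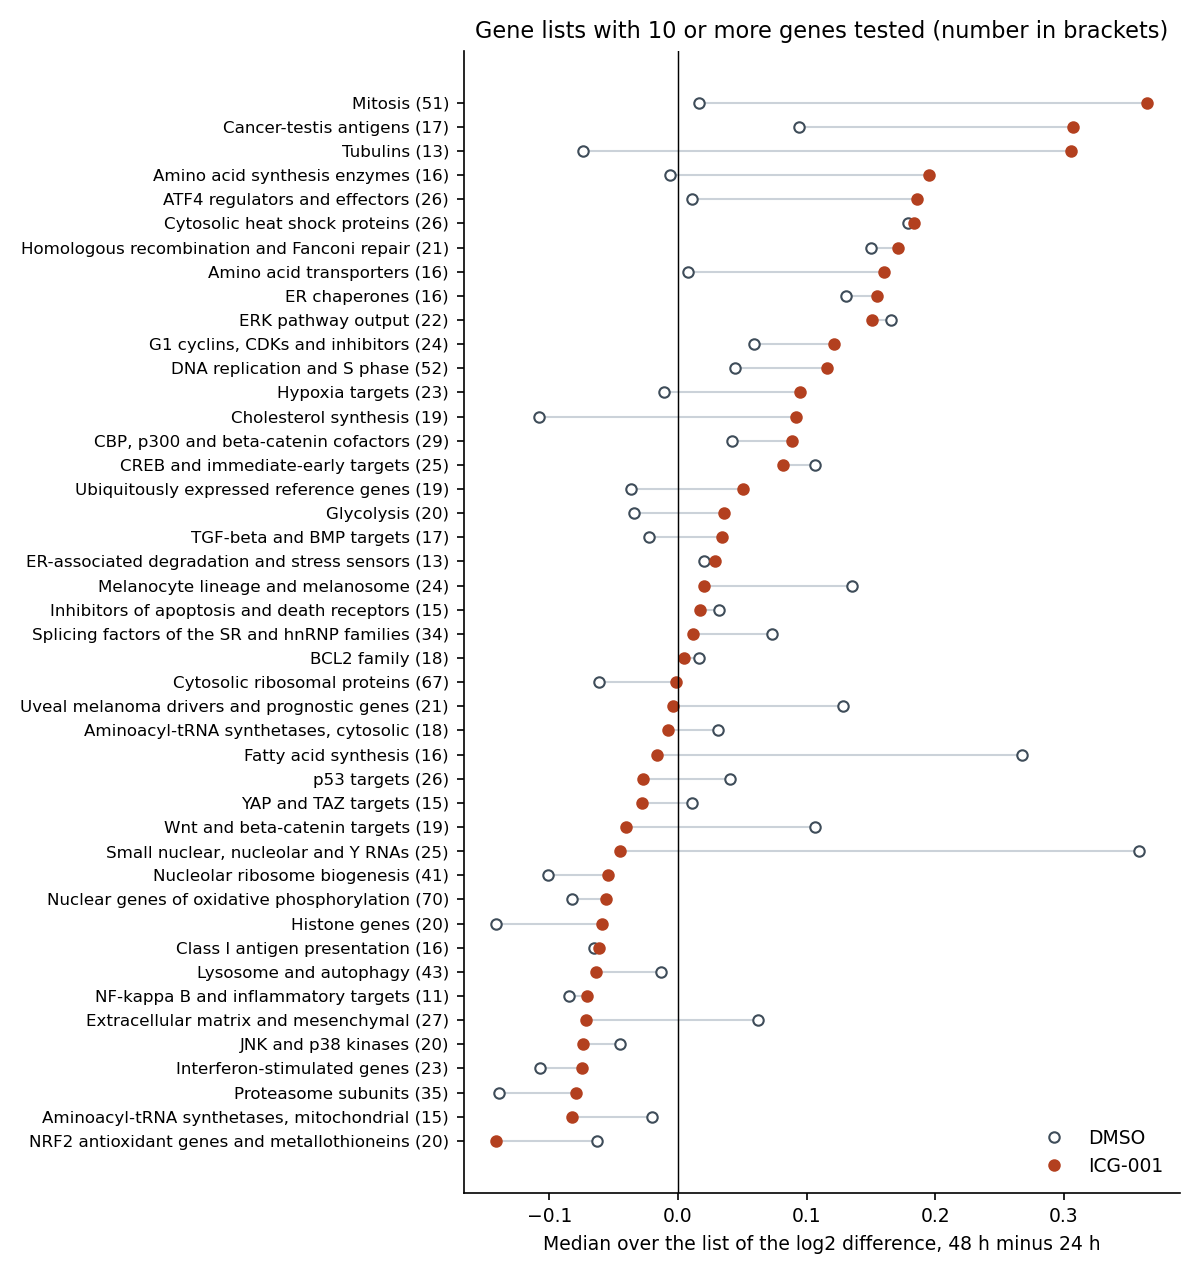
Median log2 difference between 48 h and 24 h over each gene list with 10 or more genes tested, in ICG-001 (filled) and in DMSO (open). Mitosis, cancer-testis antigens and tubulins have the highest ICG-001 medians, at 0.36, 0.31 and 0.31, and small nuclear RNAs the highest DMSO median, at 0.36.

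The genes closest to the target of the compound did not pass between the times. CREBBP, which encodes CBP, differed by -0.09 (95% interval -0.33 to 0.15), EP300, which encodes p300, by 0.22 (-0.20 to 0.65) and CTNNB1, which encodes β-catenin, by -0.05 (-0.58 to 0.47). AXIN2, a feedback target of Wnt signalling, differed by 0.01. It stood above DMSO by 0.58 at 24 h (adjusted p = 0.0252) and by 0.34 at 48 h, where it did not pass (adjusted p = 0.144). MYC, a growth-promoting transcription factor, differed by -0.05 in ICG-001, and its difference from DMSO was 1.06 at 24 h (adjusted p = 0.00456) and 0.52 at 48 h (adjusted p = 0.0849). Its 2 DMSO replicates lay far apart at 24 h, at 11.93 and 11.07, against 11.96 and 12.01 at 48 h. The smaller difference from DMSO at 48 h therefore leans on 1 DMSO replicate. CCND1, CDKN1A and MITF differed by -0.12, -0.05 and -0.04. BIRC5, which encodes survivin and is 1 of the mitotic list, had levels of 10.25, 10.18 and 10.29 at 24 h and 10.79, 10.77 and 10.71 at 48 h, without overlap, and a difference of 0.52 (0.26 to 0.78, adjusted p = 0.135) beside 0.01 in DMSO. It stood at 0.02 against DMSO at 24 h and at 0.53 at 48 h (adjusted p = 0.0135). None of the 19 Wnt and β-catenin targets tested passed, their median was -0.04, and 8 of the 9 that differed from DMSO at 24 h were held. Among all genes that differed at 24 h, 81.0% were held. Most of the 9 stood above DMSO, with 7 above and 2 below. At 48 h 5 of the 19 were above DMSO and 1 below. Over all 11679 genes, 1602 were above and 1231 below at 24 h, and 1640 above and 1370 below at 48 h.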

How the data were processed

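The authors deposited a table of bead intensities per probe, not normalised, with a detection p-value for each array, per the file headers. They also deposited a normalised log2 table of the same arrays, used as an alternative. Per the submitters' processing notes lumi was used, with settings not given in the sources used here. Here intensities were background-corrected, quantile-normalised and put on a log2 scale with an offset of 16 (neqc in limma 3.58.1, R 4.3.3). Probes with a detection p below 0.05 on at least 3 of 14 arrays were kept, and the probe with the highest mean stood for each gene. Arrays of 1 title number were averaged. A limma fit over the 4 groups gave all contrasts, two-sided, with Benjamini-Hochberg adjustment over 11679 genes. The number of arrays limits the precision. The fit was tested on simulated data. Genes were named as the largest changes past the threshold (or the 10 smallest p-values in a direction with fewer than 10), the largest moving on, moving back and held, up to 4 members of lists with a called member, and 9 fixed genes. Others were chosen after their values were seen. Members and lists were chosen with earlier results of these data known. Alternatives changed the background correction, scaling, filter, probe choice, treatment of a and b arrays, weights, test and replicates.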

Additional observations from a re-analysis of the deposited data

Results flagged for a closer look

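Of 40 groups of 4 arrays tested for a lone value, 3 had one, and chance flags about 1 in 20. On array b of ICG-001 24 h replicate 1, 14060 probes were detected at p below 0.01, against 15933, 15953 and 16009 on the other ICG-001 24 h arrays. The low count was shared by the other b arrays of the series, with 13608 in ICG-001 at 48 h and 13898 and 13787 in DMSO at 24 h and 48 h. Every array without the letter b had between 15294 and 17374. This value is therefore a trait of the b arrays and not of 1 array alone. SNX10, an endosomal sorting nexin, stood at 7.94 (log2) on array b of ICG-001 48 h replicate 3 and at 7.57, 7.61 and 7.63 on the others, all of them above the 24 h replicates. FST, follistatin, stood at 4.88 on ICG-001 48 h replicate 1 and at 4.76, 4.77 and 4.77 on the others, none of them above background. No gene was flagged for a time change that differed between ICG-001 and DMSO.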

How the results depend on the processing

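Genes called between 48 h and 24 h of ICG-001 numbered 0 (0 higher, 0 lower) with the ICG-001 arrays alone and against a 1.2-fold minimum, and 3 (1 and 2) with every probe tested, where DMSO had 2 and 0 moved back. With every array as a replicate they were 63 (35 and 28), DMSO 29, with 15 moving on and 25 back; with the title number as a random block 41 (23 and 18), DMSO 17, 7 on and 18 back. With the letter b as a term they were 167 (89 and 78), DMSO 96, 39 on and 72 back, 4051 held, 4581 and 4518 called against DMSO at 24 h and 48 h and 3118 at both; with b as a term and the block, added after seeing the data, 40 (23 and 17), DMSO 10, 8 on and 19 back. An offset of 50 gave 62 (36 and 26), DMSO 12, 11 on and 25 back, no background correction 68 (41 and 27), DMSO 12, 15 on and 25 back, and the authors' table gave 65 (38 and 27), 14 on and 24 back. A detection p of 0.01 gave 42 (25 and 17), 9 on and 18 back, and array weights 37 (22 and 15), DMSO 0 and 5 on. Without the b arrays DMSO had 1. The narrower limit for held genes, added after seeing the data, gave 532. Leaving out 1 replicate at a time, the ICG-001 count ran from 0 to 18 (0 to 11 higher, 0 to 7 lower), DMSO from 0 to 42, the difference of time changes from 0 to 1, moving on from 0 to 3, back from 0 to 8, held from 1197 to 2150, called against DMSO from 1514 to 2692 at 24 h and from 1398 to 3305 at 48 h, and at both from 1008 to 1634. The ICG-001 count was 8 without either DMSO 48 h replicate. The causes were not tested. The 17 genes kept their sign, but list medians near 0 crossed it: tRNA synthetases ran from -0.06 to 0.04, melanocyte genes from -0.02 to 0.05, Wnt targets from -0.06 to 0.02, fatty acid synthesis from -0.09 to 0.05 and small nuclear, nucleolar and Y RNAs from -0.15 to 0.22. Scaling to the 75th percentile, no filter and the mean of the probes of a gene gave 13, 17 and 22. No paired analysis was possible because groups have no title number in common. Levels near background limit FST, ITGA1 and TRIM47 at 48 h and PPIL6 in DMSO.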

Other observations

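Some lists had a larger median between the times in DMSO than in ICG-001. Of 16 fatty acid synthesis genes, 15 were positive in DMSO and 7 in ICG-001, with medians of 0.27 and -0.02, and none passed the threshold in ICG-001. The difference of time changes was positive in 2 of the 16, with an unadjusted p below 0.05 in 3. Against DMSO, 1 was lower at 24 h and 4 at 48 h, where 1231 and 1370 of all 11679 genes were. Of 25 small nuclear, nucleolar and Y RNAs, 20 were positive in DMSO and 12 in ICG-001, with medians of 0.36 and -0.05, and 10 were below DMSO at 48 h against 6 at 24 h. The ICG-001 median of these RNAs was 0.22 without 48 h replicate 3 and -0.30 within the b arrays.

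Further lists had members with lower values at 48 h and none past the threshold. In 10 of 20 NRF2 antioxidant and metallothionein genes every ICG-001 replicate at 48 h lay below those at 24 h, against 9.50% of all genes tested. The list median was -0.14 in ICG-001, -0.09 within the b arrays and -0.06 in DMSO. In 7 of 20 histone genes every 48 h replicate was likewise below, and the list median was -0.06 in ICG-001, -0.13 within the b arrays and -0.14 in DMSO. H2AC6, a replication-dependent H2A gene, differed by -0.93 (adjusted p = 0.107) and was above background on 1 of 4 arrays at 48 h, and H2BC12 differed by -0.55 in ICG-001 and -0.50 in DMSO. SPARC, a matrix glycoprotein, stood at 8.64, 8.89 and 8.59 at 24 h and 8.01, 8.31 and 8.30 at 48 h, and its difference from DMSO was -0.42 (adjusted p = 0.0683) and then -1.08 (adjusted p = 0.000888). Among ERK pathway genes FOSL1 and IER3, both induced early by growth signals, differed by 0.62 and 0.82 in ICG-001 and by -0.24 and 0.01 in DMSO. FOSL1 was above background on 0 of 4 ICG-001 arrays at 24 h. Both were chosen after their values were seen, and the ERK list as a whole was alike in the 2 treatments. In that list 15 of 22 genes were positive in ICG-001 and 16 in DMSO, with medians of 0.15 and 0.17. All 20 JNK and p38 kinase genes and all 20 glycolysis genes had intervals within 1.5-fold, as did 65 of 67 cytosolic ribosomal protein genes. The share of all genes with such intervals is not given here. Without the interval, which is a looser measure, the difference was within 1.5-fold for 98.8% of all genes. Whether these lists stand out from all genes was therefore not tested.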
